A study of Canis lupus familiaris with 9 samples.

Results

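The respiratory chain of canine CD4+ peripheral T-cell lymphoma was followed through 74 genes of the 28008 features counted, 61 encoded in the nucleus and 13 in mitochondrial DNA. Members were chosen by symbol: those beginning with NDUF, UQCR, ATP5 or COX4 to COX8, the succinate dehydrogenase genes, of which SDHA, SDHB and SDHC were found, the cytochrome genes CYC1 and CYCS, and the 13 protein-coding genes of mitochondrial DNA. The rule uses symbols and no expression values, though earlier results of these data were known when it was set. By class the nuclear members were 25 complex I subunits, 7 NDUFAF assembly factors of complex I, 3 genes of complex II, 6 of complex III, 11 of complex IV, 8 of complex V, and cytochrome c itself. Some known subunits, among them ones of complexes II, IV and V, were not analysed here, and the counts and medians by complex cover the genes found. Of the mitochondrial genes, 7 encode complex I subunits, 1 encodes cytochrome b of complex III, 3 encode complex IV subunits and 2 encode complex V subunits. In all, 68 members passed the filter on low values and were tested, and 6 nuclear members did not.

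The study sequenced poly(A)-selected RNA from 6 lymphomas and from 3 controls, as bulk libraries. Boxer lymphomas 1 to 3 came from a castrated male of 6 years, a spayed female of 8 years and a castrated male of 6 years. Other-breed lymphoma 1 came from a spayed female Cavalier King Charles Spaniel of 3 years, number 2 from a spayed female Rhodesian Ridgeback of 4 years and number 3 from a castrated male Collie of 11 years. The controls were CD4+ T cells sorted from healthy, unneutered female hounds of 1 year. Sorting is stated for the controls alone, and neither the lymphoma tissue nor any enrichment of its cells is given. The 3 controls carry identical labels that do not say whether they are separate dogs, so the p-values measure the spread between these libraries. Breed, age and neutering differ between every lymphoma and every control, and their part cannot be told apart from that of disease. In bulk RNA, a change in the number of cells of a type and a change in RNA per cell cannot be told apart either.

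The respiratory chain passes electrons from NADH (through complex I) and from succinate (through complex II) to coenzyme Q, on through complex III and cytochrome c to complex IV, which reduces oxygen. Complexes I, III and IV pump protons across the inner mitochondrial membrane, and complex V, the ATP synthase, uses the resulting gradient to make ATP. Complex II is encoded wholly in the nucleus, while the other complexes join subunits from both genomes, whose transcripts are made by different RNA polymerases. Activated and dividing T cells are known to build more mitochondria and to raise respiration together with glycolysis.

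Gene-assigned reads numbered 13158356 to 18253154 per lymphoma library and 11710623 to 18488468 per control library. The T cell gene CD3E, which encodes a chain of the T cell receptor complex, was at 13794 to 22222 in the lymphomas, against 19717 to 21357 in the controls, in normalised reads. CD4 itself was not analysed here. Of all 15977 genes tested, 19.4% were called higher in lymphoma and 15.7% lower (limma, Benjamini-Hochberg adjusted p below 0.05). Of 8 T cell markers, 1 was higher in lymphoma and none was lower. By contrast, 9 of 10 tested monocyte and macrophage markers were higher, with a summed level of 904 to 21249 in lymphoma, against 128 to 198 in the control libraries. Of 8 fibroblast and stroma markers, 6 were higher (77.3 to 11339 against 12.4 to 24.6), and MMP2 and LUM were at 0 in every control. All 4 neutrophil markers were higher (104 to 412 against 17.3 to 32.4), endothelial markers in 3 of 5 (88.3 to 6074 against 299 to 682), cytotoxic markers in 1 of 5 and B cell markers in 0 of 5. All 7 mitosis genes were higher (12449 to 31566 against 1713 to 2023). The part of these other cells and of proliferation in the results below was not tested.

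Transcripts of mitochondrial DNA took a larger share of the reads in every lymphoma than in any control. The 13 genes held, in percent of all reads, 6.76, 9.20 and 9.78 in the Boxer lymphomas and 7.24, 9.15 and 15.9 in the other-breed lymphomas, against 3.45, 3.11 and 2.80 in the controls. The mean was 9.67 ± 3.26% in the lymphomas (SD, n = 6) and 3.12 ± 0.323% in the controls (SD, n = 3). Other-breed lymphoma 3, the Collie, stood highest, and the groups did not overlap. No test was made on a share over chosen members.

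The 61 nuclear genes also took a larger share in every lymphoma, by a smaller factor. They held, in percent of all reads, 0.437, 0.361 and 0.386 in the Boxer lymphomas and 0.417, 0.391 and 0.358 in the other-breed lymphomas, against 0.247, 0.250 and 0.271 in the controls. Boxer lymphoma 1 was the highest of the lymphomas because of a single gene, NDUFV3, and was the lowest of the lymphomas once that gene was left out (0.350%, against 0.242% to 0.258% in the controls). The shares without NDUFV3 still did not overlap between lymphomas and controls. With mitochondrial reads taken out of the denominator, the nuclear share in percent was 0.398 to 0.468 in the lymphomas, against 0.256 to 0.279 in the controls.

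Every lymphoma also had more mitochondrial reads for each read of a nuclear member than any control had. This ratio was 15.5, 25.5 and 25.3 in the Boxer lymphomas and 17.4, 23.4 and 44.3 in the other-breed lymphomas, against 13.9, 12.5 and 10.3 in the controls. The lowest lymphoma on this ratio, Boxer lymphoma 1 with 15.5, lay above the highest control with 13.9, and other-breed lymphoma 3 with 44.3 lay far above all other libraries. NDUFV3 was counted in this ratio, and the nuclear share of Boxer lymphoma 1 was 0.437% with it and 0.350% without it. The low ratio of that library therefore depends in part on NDUFV3.

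**Figure D1:**
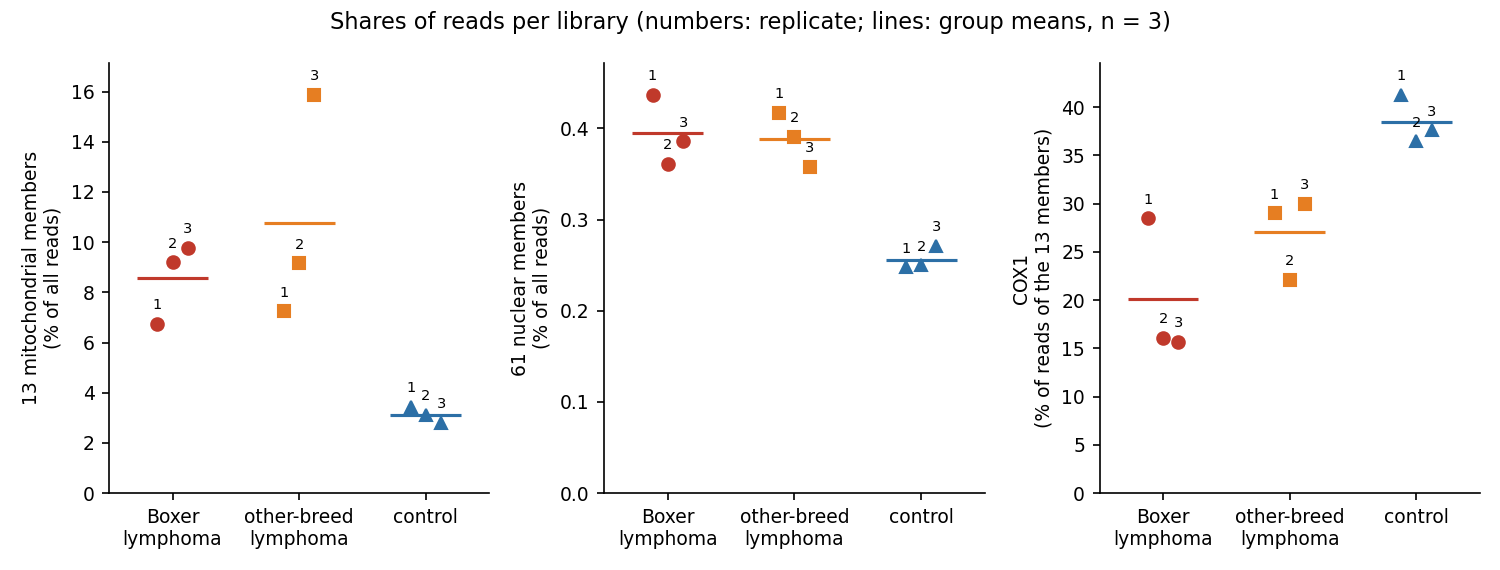
Share of all reads held by the 13 mitochondrial members (left), share held by the 61 nuclear members (middle) and COX1 as a share of the reads of the 13 mitochondrial members (right), in percent, for each library. Lines are group means (n = 3); mitochondrial shares were 6.76% to 15.9% in lymphomas and 2.80% to 3.45% in controls, and COX1 held 15.7% to 30.0% of mitochondrial reads in lymphomas and 36.4% to 41.3% in controls.

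Of the 13 mitochondrial genes, 12 rose in lymphoma and none fell, and in all 13 every lymphoma lay above every control. Over all 15977 genes tested, 19.4% were called higher and 15.7% lower by the same rule (limma, Benjamini-Hochberg adjusted p below 0.05), every lymphoma lay above every control in 18.5%, and every lymphoma lay below every control in 17.2%. The median log2 fold change of the 13 was 1.83, with a range of 0.83 to 2.13, against a median of 0.05 over all genes tested. The 13 are not independent observations, since ATP6 and ATP8 share a transcript, as do ND4 and ND4L. Fold changes are of lymphoma over control on the scale log2(value + 1), given with the standard error (SE).

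Complex I subunits of mitochondrial DNA all rose. ND6 had normalised read counts of 25607, 38105 and 49229 in the Boxer lymphomas and 33009, 39256 and 50673 in the other-breed lymphomas, against 12355, 10443 and 9209 in the controls. All lymphomas exceeded the controls, with log2 fold change 1.85 ± 0.24, limma adjusted p = 0.000426. ND5 followed with 66222, 95149 and 103695 in the Boxer lymphomas and 85393, 102930.4 and 128225 in the other-breed lymphomas, against 31592, 30673 and 27194 in the controls (log2 fold change 1.68 ± 0.24, limma adjusted p = 0.000816). ND5 and ND6 are encoded on opposite strands and overlap at their ends, and no source used here states whether the libraries keep strand. Their shared reads therefore cannot be assigned to either. Reads of any opposite-strand transcript across ND6 cannot be told apart from its own, so its values may not be separate from those of ND5.

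The remaining mitochondrial complex I subunits stood at similar fold changes. ND1, a membrane subunit near the quinone site, had 51957, 102892 and 73707 in the Boxer lymphomas and 36677, 55981 and 125847 in the other-breed lymphomas, against 21645, 20046 and 16453 in the controls (log2 fold change 1.83 ± 0.37, limma adjusted p = 0.00434). ND2 and ND4, which belong to the proton-pumping arm, had log2 fold changes of 1.70 ± 0.39 and 1.83 ± 0.38 (limma adjusted p = 0.00788 and 0.00494). ND4 was at 126924 to 359841 in the lymphomas, against 39466 to 71822 in the controls, and ND2 at 39135 to 131264 in the lymphomas, against 18963 to 25484 in the controls. ND3, a small membrane subunit, was at 10688 to 40067 in the lymphomas, against 6319.6 to 7418 in the controls (log2 fold change 1.78 ± 0.39, limma adjusted p = 0.00679), with Boxer lymphomas 2 and 3 and the Collie above the other lymphomas. ND4L, which overlaps ND4 in one transcript, was at 11989 to 29422 in the lymphomas, against 5532 to 6546 in the controls (log2 fold change 1.44 ± 0.26, limma adjusted p = 0.00259).

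CYTB, cytochrome b, is the only mitochondrially encoded subunit of complex III. It had 58589, 108583 and 88016 in the Boxer lymphomas and 63186, 94699.8 and 146174 in the other-breed lymphomas, against 20539, 22599.9 and 19584 in the controls. The lowest lymphoma was more than 2-fold above the highest control, with log2 fold change 2.09 ± 0.30, limma adjusted p = 0.000765.

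In complex IV, 2 of the 3 mitochondrial subunits passed the test and the catalytic subunit COX1 did not. COX2, which takes electrons from cytochrome c, had 95434, 157081 and 186294 in the Boxer lymphomas and 118969, 140362 and 307064 in the other-breed lymphomas, against 38470.0, 51935 and 37450.0 in the controls (log2 fold change 1.89 ± 0.36, limma adjusted p = 0.00343). COX3, a core subunit without metal centres, had 81308, 148747 and 143933 in the Boxer lymphomas and 114852, 115609 and 211624 in the other-breed lymphomas, against 36881, 28049.7 and 33596 in the controls (log2 fold change 1.997 ± 0.31, limma adjusted p = 0.00107). COX1 carries the oxygen-reducing centre. It had 276157, 241003 and 235717 in the Boxer lymphomas and 325419, 291280.4 and 777209.7 in the other-breed lymphomas, against 227469, 173230.2 and 153939 in the controls. Boxer lymphomas 2 and 3 lay just above control 1 and the Collie far above all others, and the difference did not pass (log2 fold change 0.83 ± 0.43, limma adjusted p = 0.156). Without other-breed lymphoma 3 the log2 fold change was 0.58 with an adjusted p of 0.163, and DESeq2 gave an adjusted p of 0.0431 on all libraries, the lowest of the alternatives, which ran up to 0.943 in the fit that included age.

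COX1 made up a smaller part of the mitochondrial reads in every lymphoma than in any control. It held, in percent of the reads of the 13 genes, 28.5, 16.1 and 15.7 in the Boxer lymphomas and 29.0, 22.1 and 30.0 in the other-breed lymphomas, against 41.3, 36.4 and 37.6 in the controls. Boxer lymphomas 2 and 3 were the lowest. ATP6 held 11.0 to 16.2 in the lymphomas, against 8.19 to 9.98 in the controls, and CYTB 5.63 to 7.25 in the lymphomas, against 3.73 to 4.78 in the controls, in percent, with no overlap between the groups for either. ND4 held 11.9 to 15.7 in the lymphomas, against 9.64 to 13.03 in the controls, and there the groups overlapped. These shares add up to a fixed whole and carry no test.

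ATP6 and ATP8 encode membrane subunits of the ATP synthase and overlap on 1 transcript. ATP6 had 113718, 226475 and 244122 in the Boxer lymphomas and 140534, 178981 and 283985 in the other-breed lymphomas, against 50577, 38923 and 40862 in the controls. It showed the greatest fold change of the 13 genes (log2 fold change 2.13 ± 0.33, limma adjusted p = 0.00123). ATP8 had 1880.1, 3777 and 4427 in the Boxer lymphomas and 2565, 3082 and 7031 in the other-breed lymphomas, against 1623, 1419 and 966 in the controls, with log2 fold change 1.41 ± 0.36, limma adjusted p = 0.0132. Its call was lost without control 3 (adjusted p = 0.0707) and in the fit with sex as a covariate.

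**Figure D2:**
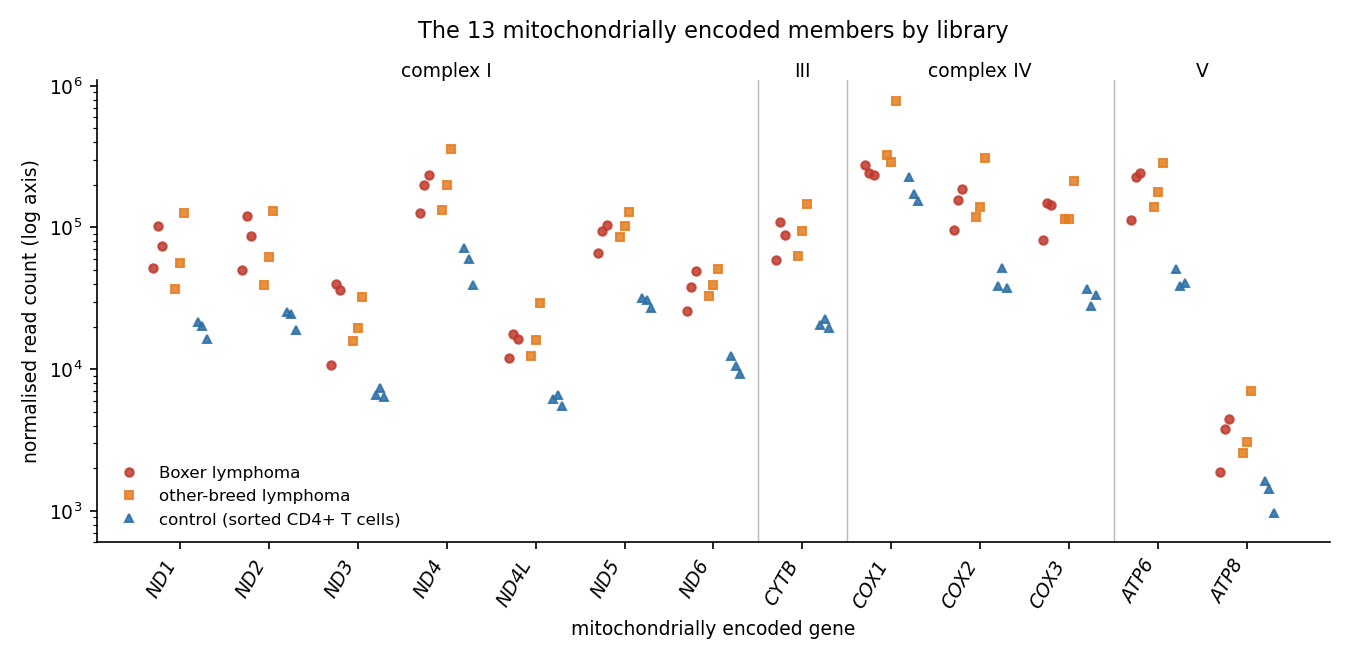
Normalised read counts (log axis) of the 13 mitochondrial members in each library, ordered by complex: circles, Boxer lymphomas; squares, other-breed lymphomas; triangles, controls. Every lymphoma lies above every control for each gene, with the narrowest gap for COX1; levels are not corrected for gene length and are not comparable between genes.

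The mitochondrial calls changed little when single libraries were left out and more when age entered the fit. Of the 12, 11 remained under each of the 9 fits that left out 1 library. With age in years as a covariate 3 remained: ND6 (adjusted p = 0.0258), ND5 (0.0420) and CYTB (0.0435). Of these, ND6 and ND5 may share reads. All 13 log2 fold changes stayed positive in that fit, COX1 at 0.09. Since all controls were 1 year old and the lymphoma dogs 3 to 11, the part of age cannot be told apart from that of disease. Levels also varied more between lymphomas than between controls: the median SD of the log2 values over the 13 genes was 0.56 in lymphomas and 0.20 in controls, as over all genes tested (0.56 and 0.25).

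Of the 55 nuclear members tested, 23 rose, 1 fell and 31 did not pass. That is 41.8% higher, against 19.4% of all genes tested, and the median log2 fold change of 0.46 stood against 0.05 for all genes. In 24 of the 55 every lymphoma lay above every control and in 1 every lymphoma lay below, against 18.5% and 17.2% of all genes. The nuclear members were steadier between lymphomas than the mitochondrial ones, with a median SD of the log2 values of 0.32 in lymphomas and 0.15 in controls. The count of higher members was 15 without control 2, 15 without control 3, 16 without control 1 and 20 to 26 without any 1 lymphoma. With age as a covariate it was 5: NDUFA8, UQCRC2, ATP5G1, ATP5F1 and ATP5A1. The 1 lower call was lost without control 1, without control 3 and with age or sex as a covariate.

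**Figure D3:**
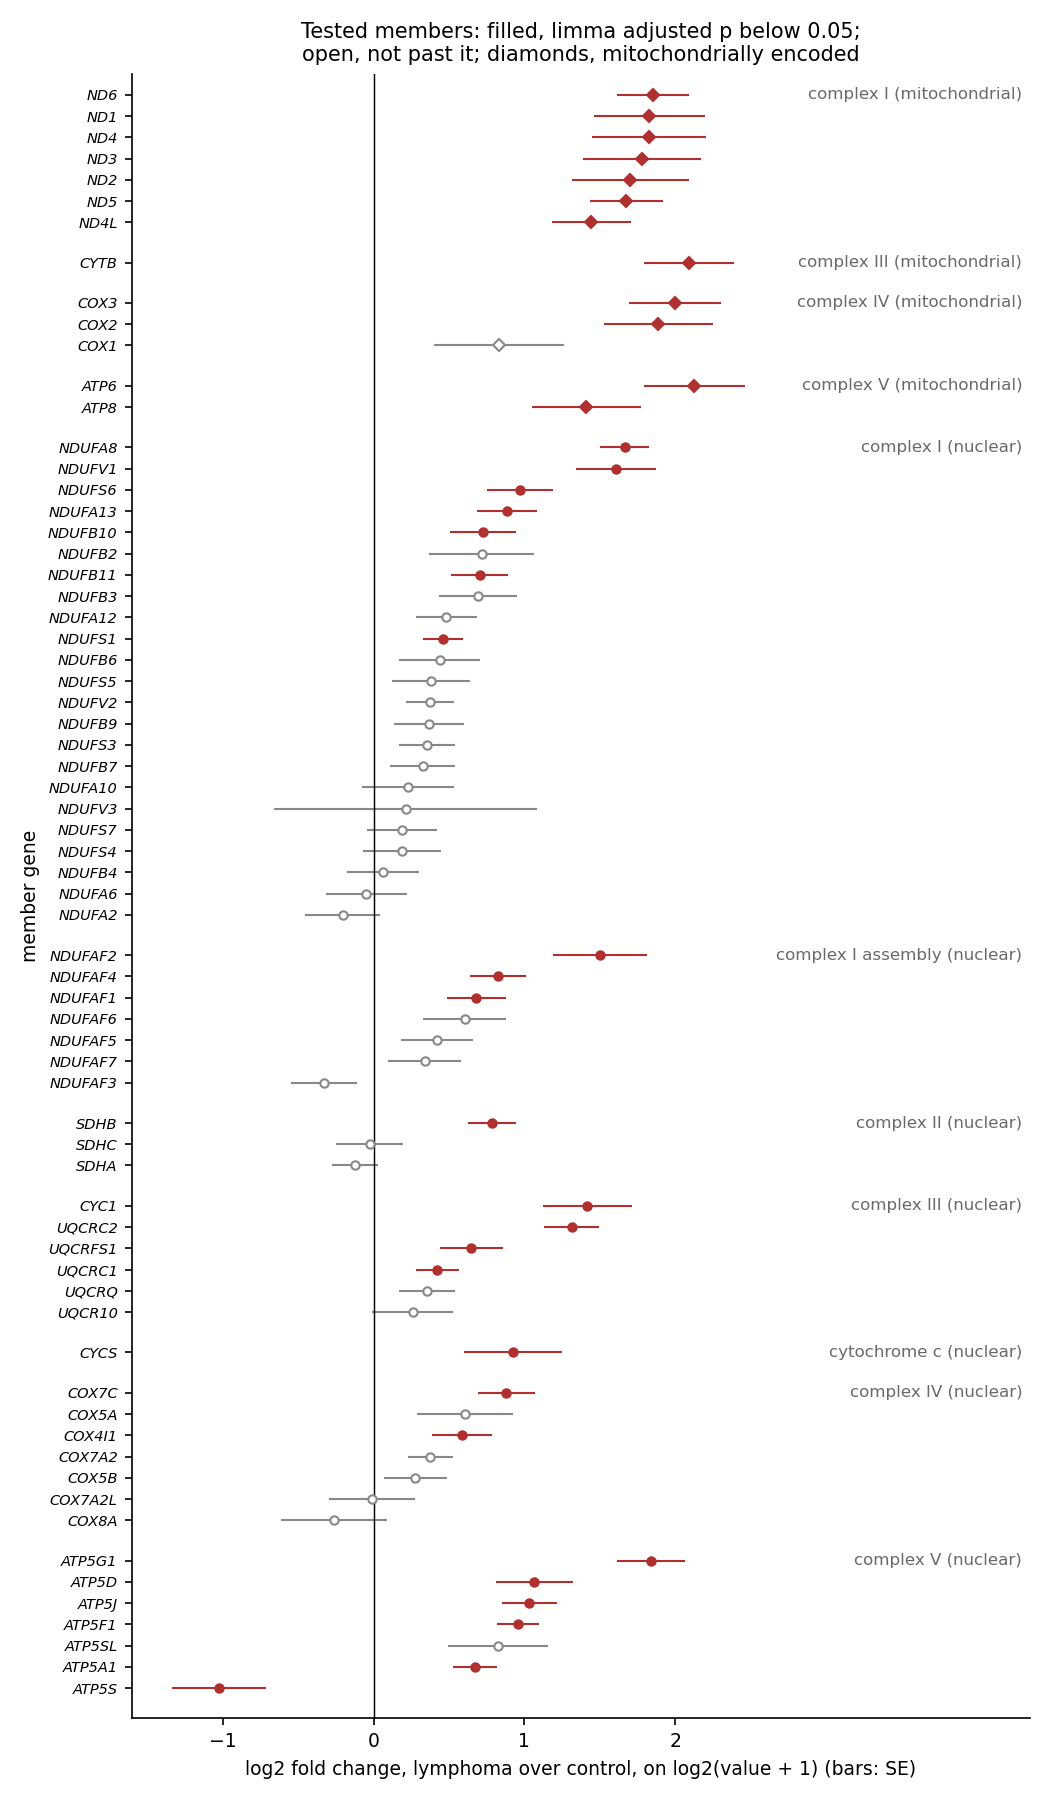
Log2 fold change of lymphoma over control with its SE (bars) for the tested members reported here, grouped by complex and by genome of origin: diamonds, mitochondrially encoded; circles, nuclear; filled, limma adjusted p below 0.05; open, not past it. The mitochondrial genes lie between 0.83 and 2.13 and the nuclear genes between -1.02 (ATP5S) and 1.84 (ATP5G1).

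Within complex I the genomes differed in their counts. All 7 mitochondrial subunits rose, with a median log2 fold change of 1.78, whereas 7 of 24 tested nuclear subunits rose (29.2%, against 19.4% of all genes tested), none fell and the median was 0.38. The counts are descriptions, and the difference between the sets was not tested.

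NDUFA8 and NDUFV1 showed the greatest changes among the nuclear subunits of complex I. NDUFA8, an accessory subunit on the intermembrane side, had 1024, 1083 and 1048 in the Boxer lymphomas and 1338, 886 and 1014 in the other-breed lymphomas, against 367, 322 and 312 in the controls. It was far above the controls in all 6 lymphomas, and varied little among them (log2 fold change 1.66 ± 0.16, limma adjusted p = 8.74e-05). NDUFV1 encodes the flavoprotein that oxidises NADH and had 1926, 3135 and 3142 in the Boxer lymphomas and 3383, 1445 and 2700.1 in the other-breed lymphomas, against 763, 892 and 816 in the controls (log2 fold change 1.61 ± 0.26, limma adjusted p = 0.00157). Boxer lymphoma 1 and other-breed lymphoma 2 were the lowest of the lymphomas, yet above every control.

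NDUFS6, an accessory subunit of the NADH-oxidising module, and NDUFA13, also known as GRIM-19, changed less. NDUFS6 had 294, 379 and 416 in the Boxer lymphomas and 454, 276 and 409 in the other-breed lymphomas, against 201, 195 and 165 in the controls (log2 fold change 0.97 ± 0.22, limma adjusted p = 0.00754). NDUFA13 had 482, 669 and 785 in the Boxer lymphomas and 829.8, 667 and 697 in the other-breed lymphomas, against 345, 430.1 and 333 in the controls (log2 fold change 0.88 ± 0.20, limma adjusted p = 0.00707). The groups stood apart for each gene, NDUFA13 narrowly, since Boxer lymphoma 1 lay just above control 2. The accessory membrane subunits NDUFB11 and NDUFB10 rose with log2 fold changes of 0.70 ± 0.19 and 0.73 ± 0.22, and the iron-sulphur core subunit NDUFS1 with 0.46 ± 0.13 (adjusted p from limma of 0.0157, 0.0275 and 0.0216). Leaving out any 1 control ended the calls of NDUFB11 and NDUFB10 (adjusted p up to 0.0606 and 0.101), and leaving out control 2 or 3 ended that of NDUFS1 (up to 0.102).

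Other core subunits of complex I did not pass. NDUFV2, the partner of NDUFV1 in the flavoprotein, was at 1107 to 1501 in the lymphomas, against 877 to 1132 in the controls (log2 fold change 0.38 ± 0.16, limma adjusted p = 0.0922). NDUFS3 and NDUFS7, both core subunits of the arm that carries electrons to the quinone, had log2 fold changes of 0.35 ± 0.19 and 0.19 ± 0.23 (limma adjusted p = 0.160 and 0.543). Groups overlapped for all 3 genes. Among the 17 subunits that did not pass, NDUFB3 was the only one with every lymphoma above every control (log2 fold change 0.69 ± 0.26, limma adjusted p = 0.0582).

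NDUFV3, the third flavoprotein subunit, stood apart in 1 library. It had 12438, 1026 and 552 in the Boxer lymphomas and 706, 722 and 775 in the other-breed lymphomas, against 880.4, 618 and 1973 in the controls. Boxer lymphoma 1 was more than 10-fold above every other lymphoma, and control 3 was the highest of the controls. The comparison of the groups gave log2 fold change 0.21 ± 0.87, limma adjusted p = 0.867. NDUFC1, a small accessory subunit, is listed at 0 in every library.

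Of the 7 assembly factors of complex I, 3 rose (42.9%, against 19.4% of all genes tested) and none fell. The median log2 fold change was 0.60. NDUFAF2, a chaperone of late assembly, had 132, 161 and 139.5 in the Boxer lymphomas and 204, 106 and 125 in the other-breed lymphomas, against 62.8, 51.2 and 37.0 in the controls. Every lymphoma was above every control (log2 fold change 1.50 ± 0.31, limma adjusted p = 0.00495), at low read numbers. NDUFAF4, which acts early in assembly, had 654, 836 and 856 in the Boxer lymphomas and 803, 1095 and 763 in the other-breed lymphomas, against 549, 432 and 424 in the controls (log2 fold change 0.83 ± 0.18, limma adjusted p = 0.00706). NDUFAF1, also an early factor, was at 315 to 479 in the lymphomas, against 214 to 242 in the controls (log2 fold change 0.68 ± 0.19, limma adjusted p = 0.0209), and its call was lost without any 1 of the controls (adjusted p up to 0.0877). NDUFAF3, the partner of NDUFAF4 in assembly, was at 415 to 750.0 in the lymphomas, against 704 to 764 in the controls, with log2 fold change -0.33 ± 0.22, limma adjusted p = 0.256. NDUFAF5, NDUFAF6 and NDUFAF7 did not pass, with log2 fold changes of 0.42 ± 0.24, 0.60 ± 0.27 and 0.34 ± 0.24.

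Complex II, which has no mitochondrially encoded subunit, was measured through the 3 of its genes that were found. Of these, 1 rose (33.3%, against 19.4% of all genes tested). SDHB, the iron-sulphur subunit, had 873, 1194 and 942 in the Boxer lymphomas and 949.9, 899 and 1061 in the other-breed lymphomas, against 665, 528 and 524 in the controls. The groups did not overlap (log2 fold change 0.79 ± 0.16, limma adjusted p = 0.00429). SDHA, the flavoprotein subunit that oxidises succinate, had 1884, 2276 and 1682 in the Boxer lymphomas and 2461, 1995 and 2124 in the other-breed lymphomas, against 2076, 2165 and 2489 in the controls (log2 fold change -0.12 ± 0.15, limma adjusted p = 0.550). SDHC, a membrane anchor, was at 475 to 918 in the lymphomas, against 682 to 789 in the controls (log2 fold change -0.03 ± 0.22, limma adjusted p = 0.936). For SDHA and SDHC the lymphomas and controls overlapped.

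In complex III, 4 of 6 nuclear members rose (66.7%, against 19.4% of all genes tested) and none fell. The median log2 fold change was 0.54. UQCRC2, a core subunit facing the matrix, had 3259, 2080.0 and 3444 in the Boxer lymphomas and 2518, 3550.2 and 2731 in the other-breed lymphomas, against 1239, 1125 and 1116 in the controls. The lowest lymphoma, Boxer lymphoma 2, was well above the highest control (log2 fold change 1.31 ± 0.18, limma adjusted p = 0.000693). CYC1, the cytochrome c1 that hands electrons to cytochrome c, had 660.1, 1482 and 844 in the Boxer lymphomas and 1031, 528 and 867 in the other-breed lymphomas, against 254, 343 and 374 in the controls (log2 fold change 1.42 ± 0.30, limma adjusted p = 0.00520). Its lymphoma values spread widely, from 528 in other-breed lymphoma 2 to 1482 in Boxer lymphoma 2, without reaching the controls.

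UQCRFS1, the Rieske iron-sulphur protein, had 814, 631 and 668 in the Boxer lymphomas and 1009.9, 946 and 1043 in the other-breed lymphomas, against 625, 467 and 519 in the controls (log2 fold change 0.65 ± 0.21, limma adjusted p = 0.0330). UQCRC1, the partner core subunit of UQCRC2, had 1372, 1456 and 1541 in the Boxer lymphomas and 1719, 1943 and 1665 in the other-breed lymphomas, against 1136, 1266 and 1194 in the controls (log2 fold change 0.42 ± 0.14, limma adjusted p = 0.0435). The lymphomas exceeded the controls narrowly in both genes. The call of UQCRFS1 was lost without control 2, control 3, other-breed lymphoma 1 or other-breed lymphoma 3 (adjusted p up to 0.142), and that of UQCRC1 without any 1 of the libraries except Boxer lymphomas 1 and 2 (up to 0.138). The small subunits UQCRQ and UQCR10 did not pass, with log2 fold changes of 0.35 ± 0.19 and 0.26 ± 0.27.

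CYCS, the soluble cytochrome c, had 1590.4, 2325 and 1077 in the Boxer lymphomas and 2203, 778 and 1807 in the other-breed lymphomas, against 884, 839.6 and 691 in the controls. Other-breed lymphoma 2 lay among the controls, so the groups overlapped, and the gene was at the threshold itself (log2 fold change 0.92 ± 0.33, limma adjusted p = 0.04995). The call was lost in 16 of 25 alternatives, among them the fits without any 1 of the controls, without Boxer lymphoma 1 or 2 and without other-breed lymphoma 1 or 3 (adjusted p up to 0.165). Cytochrome c has many processed pseudogenes, which can share its reads.

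In complex IV, 2 of 7 tested nuclear members rose (28.6%, against 19.4% of all genes tested) and none fell, with a median log2 fold change of 0.38. With 7 genes, this count is near the share over all genes. COX7C, a small subunit common to all tissues, had 994, 1009.7 and 1670.1 in the Boxer lymphomas and 1013, 1161 and 1032 in the other-breed lymphomas, against 557, 621 and 659 in the controls (log2 fold change 0.88 ± 0.19, limma adjusted p = 0.00578). Boxer lymphoma 3 was high and the other 5 lymphomas were close together. COX4I1, the common isoform of the regulatory subunit 4, had 2578, 2983 and 2806 in the Boxer lymphomas and 4481, 2288 and 3287 in the other-breed lymphomas, against 2114, 1976 and 1901 in the controls (log2 fold change 0.59 ± 0.20, limma adjusted p = 0.0415). Its call was lost without any 1 of the controls, without Boxer lymphoma 2 or 3 and without other-breed lymphoma 3 (adjusted p up to 0.130).

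The other tested subunits of complex IV did not pass. COX7A2, the common isoform of subunit 7A, had 995, 1185 and 1299 in the Boxer lymphomas and 1116, 1160.0 and 961 in the other-breed lymphomas, against 803, 819 and 959 in the controls (log2 fold change 0.38 ± 0.15, limma adjusted p = 0.0699). The groups touched without overlapping, and the call was made under DESeq2 (0.0384) and when mitochondrial reads were left out of the scaling (0.0342), with other alternatives up to 0.213. COX7A2L, a related protein found in respiratory supercomplexes, was at 378 to 999 in the lymphomas, against 706 to 848 in the controls (log2 fold change -0.01 ± 0.28, limma adjusted p = 0.978), with Boxer lymphoma 1 the lowest library of all. COX8A was at 194 to 669 in the lymphomas, against 501 to 537 in the controls (log2 fold change -0.26 ± 0.35, limma adjusted p = 0.585), with other-breed lymphoma 2 lowest. COX5A and COX5B, the pair of matrix-side subunits, had log2 fold changes of 0.60 ± 0.32 and 0.28 ± 0.21 (limma adjusted p = 0.161 and 0.324).

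Isoforms of complex IV known from muscle, lung or hypoxic cells were low in most libraries, did not pass the filter on low values and were not tested. COX4I2, the lung and hypoxia isoform of subunit 4, had 0.850, 104 and 10.4 in the Boxer lymphomas and 7.06, 0.789 and 9.55 in the other-breed lymphomas, against 2.73, 0 and 0 in the controls. Boxer lymphoma 2 stood alone among the libraries. COX7A1, the heart and skeletal muscle isoform of subunit 7A, had 20.4, 6.64 and 1.04 in the Boxer lymphomas and 21.2, 3.15 and 9.55 in the other-breed lymphomas, against 2.73, 0.826 and 3.70 in the controls, with Boxer lymphoma 1 and other-breed lymphoma 1 highest. NDUFA4L2, a hypoxia-induced paralogue of the complex IV subunit NDUFA4, was at 0 to 6.37 in the lymphomas and at 0 in every control. COX6A2, the muscle isoform of subunit 6A, was found as 1 read in Boxer lymphoma 1 and in no other library. Of the 5 striated muscle markers found, ACTA1, CKM, MB and TNNT3 were at 0 in every control and at no more than 7.29 in any lymphoma. The fifth, MYH7, a slow muscle myosin, was at 11.9 to 70.2 in the lymphomas, against 25.9 to 36.9 in the controls (log2 fold change -0.03 ± 0.55, limma adjusted p = 0.971), with overlap between the groups. The 5 summed to 13.6 to 77.3 in the lymphomas, against 25.9 to 36.9 in the controls.

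Complex V had the greatest median among the nuclear complexes, 0.96 on the log2 scale. Of its 7 tested members 5 were higher (71.4%) and 1 lower, against 19.4% and 15.7% of all genes tested. The class includes ATP5S, the 1 lower member, and ATP5SL, neither of them a core subunit of the enzyme. ATP5G1, a copy of subunit c of the membrane ring, had 409, 475 and 538 in the Boxer lymphomas and 674, 587 and 619.8 in the other-breed lymphomas, against 115, 173 and 174 in the controls. The lowest lymphoma was more than 2-fold above the highest control, with the greatest fold change of the nuclear members tested (log2 fold change 1.84 ± 0.22, limma adjusted p = 0.000319). ATP5G3, another copy of the same subunit, was at 0.789 to 5.95 in the lymphomas, against 2.73 to 9.91 in the controls and was not tested. The subunit c genes encode the same mature protein, so reads from the part that encodes it may be split between them. Whether this affected the values of ATP5G1 or ATP5G3 was not tested.

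Further subunits of complex V rose by less. ATP5F1, the stalk subunit b, had 3094, 2910.5 and 3748 in the Boxer lymphomas and 3362, 3655 and 2980.3 in the other-breed lymphomas, against 1845, 1712 and 1519 in the controls (log2 fold change 0.96 ± 0.14, limma adjusted p = 0.000815). ATP5A1, the alpha subunit of the catalytic head, had 7448, 8281 and 8349 in the Boxer lymphomas and 10198, 10235 and 8649 in the other-breed lymphomas, against 5579.7, 5340.0 and 5655 in the controls (log2 fold change 0.67 ± 0.15, limma adjusted p = 0.00620). The lymphomas were clear of the controls in both genes. ATP5J, coupling factor 6 of the stalk, was at 896 to 1361 in the lymphomas, against 464 to 649 in the controls (log2 fold change 1.03 ± 0.18, limma adjusted p = 0.00220). ATP5D, the delta subunit of the central stalk, was at 588 to 1091 in the lymphomas, against 248 to 476 in the controls (log2 fold change 1.06 ± 0.26, limma adjusted p = 0.00986), and its call was lost without control 1 (adjusted p = 0.0532).

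ATP5S and ATP5SL share the ATP5 symbol but are not core subunits of the enzyme. ATP5S, known as coupling factor B, had 56.1, 77.7 and 88.5 in the Boxer lymphomas and 83.6, 106 and 94.5 in the other-breed lymphomas, against 233, 128 and 162 in the controls. It was the only member called lower in lymphoma, with all lymphomas below all controls (log2 fold change -1.02 ± 0.31, limma adjusted p = 0.0278). The call was lost without control 1 or without control 3 (adjusted p up to 0.137). ATP5SL, known in humans as the complex I assembly protein DMAC2, was at 174 to 488 in the lymphomas, against 126 to 247 in the controls (log2 fold change 0.83 ± 0.33, limma adjusted p = 0.0762), and the groups overlapped.

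**Figure D4:**
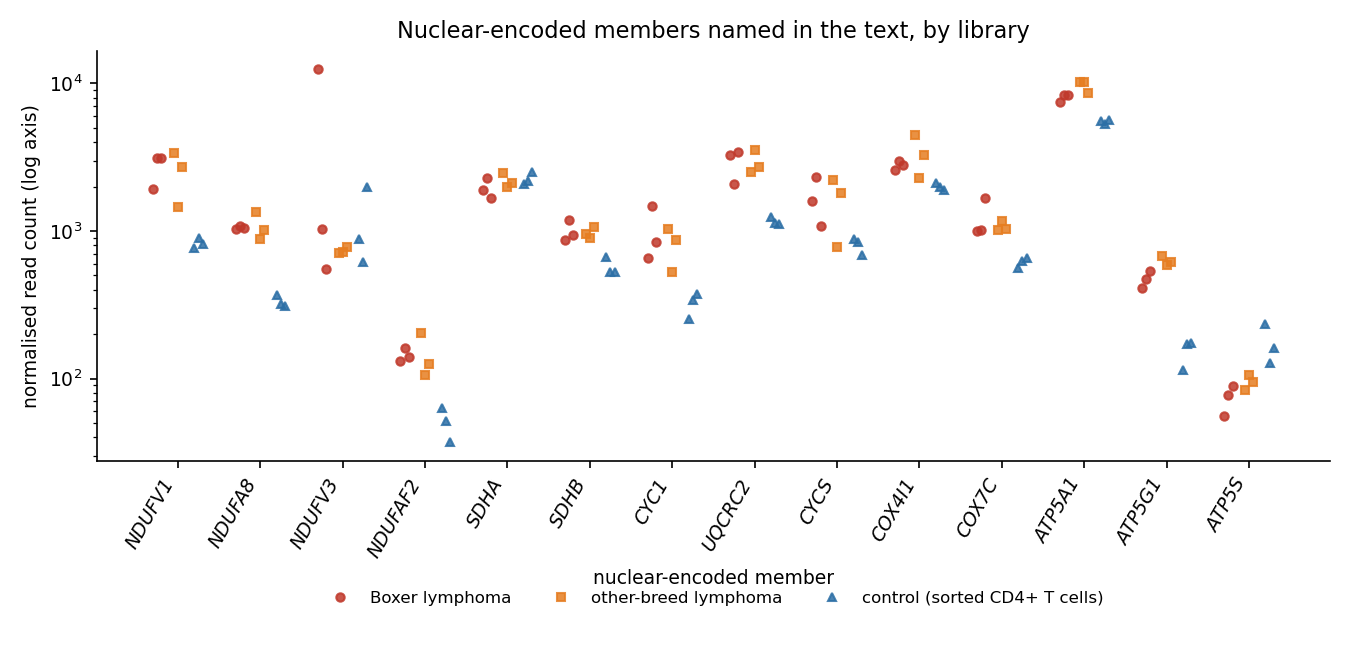
Normalised read counts (log axis) of 14 nuclear members in each library: circles, Boxer lymphomas; squares, other-breed lymphomas; triangles, controls. NDUFA8 and ATP5G1 show lymphomas well above controls, SDHA overlaps, ATP5S is lower in lymphoma, and NDUFV3 stands at 12438 in Boxer lymphoma 1 against 552 to 1026 in the other lymphomas.

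Set side by side by complex, the mitochondrial genes had the greater median in each complex that draws on both genomes. In complex I the median log2 fold change was 1.78 for mitochondrial and 0.38 for nuclear subunits, in complex III 2.09 for CYTB and 0.54 for the nuclear members, in complex IV 1.89 and 0.38, and in complex V 1.77 and 0.96. Complex II, of nuclear origin alone, had -0.03. The nuclear median of complex V includes ATP5S and ATP5SL, which are not core subunits. Per library, the median log2 ratio to the control mean was 1.18 to 2.53 for the mitochondrial members in the lymphomas and 0.31 to 0.67 for the nuclear members. Every lymphoma had the greater median in the mitochondrial set. Scaling shifts the fold changes of both sets nearly alike, since the factor of a library applies to all its genes. With mitochondrial reads left out of the library total, COX1 moved from 0.83 to 0.92 and COX7A2 from 0.38 to 0.47. What scaling changes is the level against the controls and the calls. The median of all genes tested moved to 0.14 and 27 nuclear members were called higher, while 12 mitochondrial members were called as before.

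No member passed in the direct comparison of the 3 Boxer with the 3 other-breed lymphomas: 0 of 68 by limma, with 0% of the 15112 genes tested called. By unadjusted p below 0.05, 1 member passed, against 4.98% of all genes. edgeR called no member either, with 1 at an unadjusted p below 0.05, and DESeq2 called none, with 3. UQCRFS1 had the smallest p: 814, 631 and 668 in the Boxer lymphomas, against 1009.9, 946 and 1043 in the other-breed lymphomas (log2 fold change of Boxer over other breed -0.51 ± 0.19, unadjusted p from limma's test = 0.0342, adjusted p = 0.881). The groups did not overlap for this gene. NDUFAF3 and ATP5G1 came next, with log2 fold changes of -0.51 and -0.41 and unadjusted limma p of 0.0723 and 0.0997. The median over the members was -0.23 for the mitochondrial and -0.05 for the nuclear genes.

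Genes that build, feed and regulate the respiratory chain were read from lists, chosen with earlier results of these data known. Their counts stand against 19.4% higher and 15.7% lower over all genes tested. Pyruvate entry and the tricarboxylic acid cycle, which make the NADH and succinate that the chain oxidises, had 8 of 16 tested genes higher (50%) and 1 lower (6.25%), with a median log2 fold change of 0.73. PDHA1, a subunit of pyruvate dehydrogenase, had 2526, 2363 and 3738 in the Boxer lymphomas and 3269, 2704 and 2613 in the other-breed lymphomas, against 1145, 1242 and 1284 in the controls (log2 fold change 1.21 ± 0.17, limma adjusted p = 0.000593). CS, citrate synthase, had 2002, 2110.3 and 1895 in the Boxer lymphomas and 1992, 1547 and 1836 in the other-breed lymphomas, against 965, 1034 and 1108 in the controls (log2 fold change 0.87 ± 0.14, limma adjusted p = 0.00132). Each was higher in all lymphomas. DLD, a subunit shared by several of the dehydrogenase complexes, had a log2 fold change of 0.73 ± 0.16 (limma adjusted p = 0.00622). IDH3G, a regulatory subunit of NAD-dependent isocitrate dehydrogenase, was lower, at 941 to 1315 in the lymphomas, against 1873 to 1981 in the controls (log2 fold change -0.81 ± 0.15, limma adjusted p = 0.00278).

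Of 34 tested assembly factors outside the membership rule, 10 were higher (29.4%) and 1 lower (2.94%), with a median of 0.33. COA7, which serves complex IV assembly, was at 312 to 523 in the lymphomas, against 107 to 157 in the controls (log2 fold change 1.62 ± 0.23, limma adjusted p = 0.000646). ACAD9, a complex I assembly factor, was at 947 to 1214 in the lymphomas, against 459.9 to 506 in the controls (log2 fold change 1.19 ± 0.15, limma adjusted p = 0.000328). BCS1L, which inserts the Rieske protein into complex III, and TMEM126B, of complex I assembly, had log2 fold changes of 1.43 ± 0.24 and 1.23 ± 0.22 (limma adjusted p = 0.00183 and 0.00259). COA1 was lower (log2 fold change -0.52 ± 0.18, limma adjusted p = 0.0494), a call lost without any 1 library.

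The next list held the machinery that copies and transcribes mitochondrial DNA. Of 25 tested, 3 were higher (12%) and 1 lower (4%), with a median of 0.05. TFAM, which packages mitochondrial DNA and starts its transcription, was at 767 to 1001 in the lymphomas, against 787 to 1207 in the controls (log2 fold change -0.13 ± 0.17, limma adjusted p = 0.573). POLRMT, the mitochondrial RNA polymerase, was at 708 to 994 in the lymphomas, against 663 to 1087 in the controls (log2 fold change -0.07 ± 0.18, limma adjusted p = 0.772), and POLG, the DNA polymerase, at 1935 to 2562 in the lymphomas, against 2297 to 2836 in the controls (log2 fold change -0.32 ± 0.14, limma adjusted p = 0.101). These 3, named after their values were seen, overlapped between the groups. LRPPRC, which stabilises mitochondrial messenger RNAs, was higher, at 2932 to 4339.6 in the lymphomas, against 1816 to 1989 in the controls (log2 fold change 0.87 ± 0.15, limma adjusted p = 0.00186). MTERF3, a repressor of mitochondrial transcription in mice, was lower: 622, 765 and 454 in the Boxer lymphomas and 254, 727 and 640.0 in the other-breed lymphomas, against 2258, 1213 and 1319 in the controls (log2 fold change -1.50 ± 0.35, limma adjusted p = 0.00868). That call was lost without control 1, the highest of the controls (adjusted p = 0.0528). TEFM and FASTKD2, of mitochondrial transcript elongation and RNA processing, had 0.66 ± 0.18 and 0.59 ± 0.18 (limma adjusted p = 0.0189 and 0.0275), both lost without control 2 or control 3.

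Of 9 tested nuclear regulators of mitochondrial genes, 2 were higher (22.2%) and 1 lower (11.1%), shares near those of all genes, with a median of -0.10. PPARGC1B, a coactivator of mitochondrial biogenesis, had 183, 101 and 156 in the Boxer lymphomas and 258, 162 and 171 in the other-breed lymphomas, against 38.2, 33.8 and 44.5 in the controls. Every lymphoma was more than 2-fold above every control (log2 fold change 2.07 ± 0.32, limma adjusted p = 0.00120). HCFC1, a transcriptional coregulator, and SP1, a general transcription factor, had log2 fold changes of 0.42 ± 0.14 and -0.56 ± 0.18 (limma adjusted p = 0.0410 and 0.0349), and each call was lost without any 1 of the controls, without Boxer lymphoma 3 and without other-breed lymphoma 1, that of HCFC1 also without Boxer lymphoma 1 (adjusted p up to 0.186 and 0.118).

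Carriers and porins had 5 of 12 tested genes higher (41.7%) and 1 lower (8.33%), with a median of 0.58. SLC25A5, an ADP/ATP carrier of the inner membrane, had 5123, 8284 and 9031 in the Boxer lymphomas and 7593, 3511 and 6735 in the other-breed lymphomas, against 1628, 1406 and 1462 in the controls (log2 fold change 2.10 ± 0.27, limma adjusted p = 0.000459). SLC25A6, another isoform of the same carrier, had 11459.7, 11969.9 and 7058 in the Boxer lymphomas and 6669, 4837 and 6129 in the other-breed lymphomas, against 12941, 13096 and 14044 in the controls (log2 fold change -0.81 ± 0.28, limma adjusted p = 0.0452). SLC25A5 was higher in all lymphomas and SLC25A6 lower in all of them, and the call of SLC25A6 was lost without any 1 of the libraries except Boxer lymphomas 1 and 2 (adjusted p up to 0.132). VDAC2, a porin of the outer membrane, was at 1993 to 3187 in the lymphomas, against 949 to 1208 in the controls (log2 fold change 1.23 ± 0.19, limma adjusted p = 0.00107). VDAC1, another porin, was at 1279 to 3375 in the lymphomas, against 954 to 987 in the controls (log2 fold change 1.02 ± 0.29, limma adjusted p = 0.0213, lost without any 1 of the controls). ATPIF1, the inhibitor protein of ATP synthase, was at 854 to 1934 in the lymphomas, against 442 to 526 in the controls (log2 fold change 1.22 ± 0.25, limma adjusted p = 0.00465).

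Protein import had 8 of 21 tested genes higher (38.1%) and 2 lower (9.52%), with a median of 0.28. TOMM40, the channel of the outer membrane, had 605, 709 and 549.8 in the Boxer lymphomas and 666, 839.9 and 630.4 in the other-breed lymphomas, against 154, 264 and 257 in the controls (log2 fold change 1.59 ± 0.22, limma adjusted p = 0.000616). TIMM8A, a chaperone between the membranes, TIMM17A, of the inner membrane channel, and TOMM20, a receptor, had log2 fold changes of 1.42 ± 0.29, 0.76 ± 0.17 and 0.61 ± 0.14 (limma adjusted p = 0.00467, 0.00828 and 0.00910). TIMM21, of the inner membrane translocase, and PMPCB, a subunit of the peptidase that removes import signals, were lower, with log2 fold changes of -0.63 ± 0.15 and -0.42 ± 0.12 (limma adjusted p = 0.00867 and 0.0229). The calls of TOMM20 and TIMM21 were lost without control 2, and that of PMPCB without any 1 of the controls. Of the 43 calls in these lists, 20 remained in every fit that left out 1 library, and 13 when age was a covariate.

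**Figure D5:**
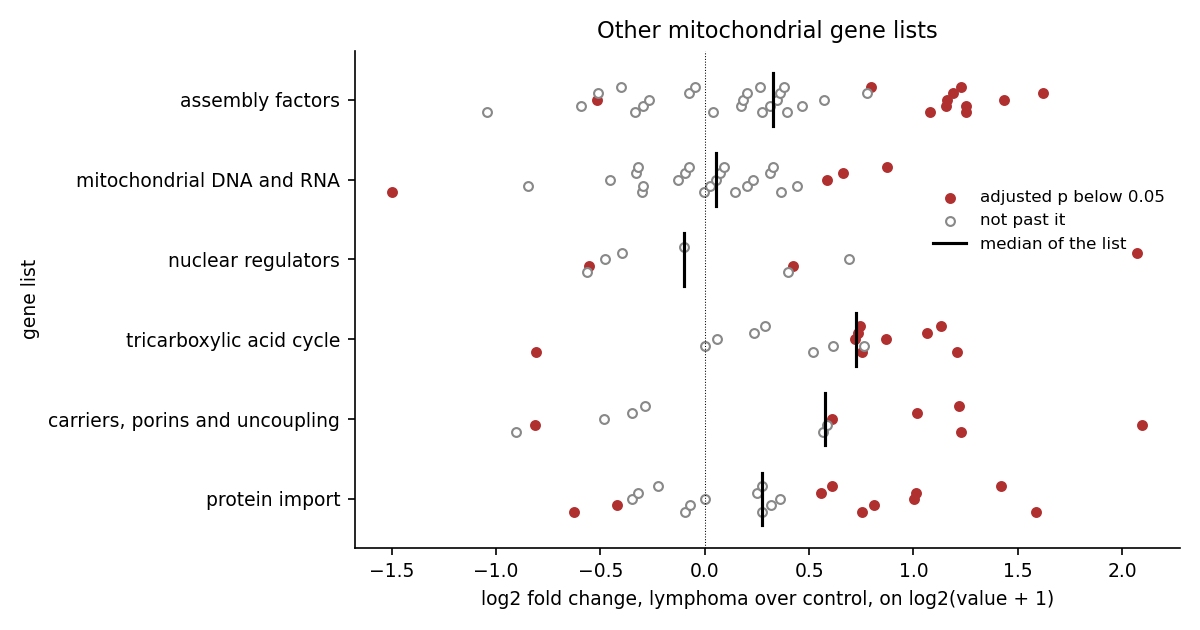
Log2 fold change of lymphoma over control for the tested genes of 6 lists of mitochondrial function: filled, limma adjusted p below 0.05; open, not past it; black bar, median of the list. The medians run from -0.10 for nuclear regulators to 0.73 for the tricarboxylic acid cycle, and the median of all genes tested is 0.05.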

How the data were processed

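The deposited files give, per library, gene-level read counts that the authors had divided by a size factor, so the unit is a scaled signal and not raw counts; per the submitters' processing notes, TopHat2, HTSeq, DESeq2 and the CanFam3.1 build were used, and per the labels' protocols RNA had integrity numbers above 8.80 and was selected with oligo(dT). No source used here states how strand was handled. Each column held whole multiples of the value of 1 read: 100% of values came out whole within a tolerance of 0.01, and edgeR's quasi-likelihood test on the recovered reads called 3100 genes higher and 2290 lower.

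Because the values are scaled, the test was limma 3.58.1 (R 4.3.3) with a mean-variance trend on log2(value + 1), over genes reaching 10 in 3 or more libraries, with Benjamini-Hochberg adjustment over all genes tested and a threshold of 0.05. A fold change on this scale understates changes of low genes. Calls were made for 6 lymphomas against 3 controls (15977 genes) and for 3 Boxer against 3 other-breed lymphomas (15112 genes). Alternatives changed the scaling, tool (edgeR 4.0.16, DESeq2 1.42.0), pseudocount, filter, samples and covariates. The scripts were tested on simulated data. Same-numbered libraries of different groups correlated at -0.136 to 0.104 over 9 pairs, and differently numbered ones at -0.123 to 0.151. The numbers were therefore not used to pair the samples in the main fit. With 3 libraries per group, these correlations cannot tell whether same-numbered libraries shared a batch.

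Named genes are all mitochondrial members, the up to 4 with the smallest p per class and direction, the member of the greatest change per class, tissue isoforms of complex IV and up to 4 genes per list and direction; other members named were chosen after their values were seen. The members and lists were chosen with earlier results of these data known. Gene lengths were not used, so levels are compared within a gene only. The mitochondrial COX2 gene is listed as MT-CO2 and COX5B in lower case. Nuclear copies of mitochondrial sequence can share reads with mitochondrial genes. Values of some genes that are counted here are not reported singly.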

Additional observations from a re-analysis of the deposited data

Results flagged for a closer look

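In 5 of 71 sets of 6 lymphoma values, 1 library stood so far from the others that its gap to the nearest, divided by the whole range, exceeded Dixon's critical value. Chance flags about 1 in 20 such sets. Gaps of genes were measured on log2(value + 1) and the gap of the mitochondrial share on percent, so they are not on the same scale. The mitochondrial share of reads was marked by other-breed lymphoma 3, with a gap of 0.668 of the range in percent. COX1 was marked by the same library, with 0.73 of the range on the log2 scale. In that library the 13 genes held 15.9% of reads, against 6.76% to 9.78% in the other lymphomas and 2.80% to 3.45% in the controls, and COX1 was at 777209.7 normalised reads. NDUFV3 was marked by a high value in Boxer lymphoma 1 (0.801 of the range), COX7C by a high value in Boxer lymphoma 3 (0.701) and COX7A2L by a low value in Boxer lymphoma 1 (0.65).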

How the results depend on the processing

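The 12 mitochondrial calls and their direction held in scaling by TMM, by library total and by the total without mitochondrial genes, in edgeR, DESeq2, with other pseudocounts and filters, with either lymphoma group alone and in female dogs alone; with sex as a covariate 11 held. Age as a covariate left 3 mitochondrial and 5 nuclear members higher and 0 nuclear members lower, with 1048 genes higher and 885 lower over all; the cause was not tested. With the replicate number as a block (replicate block), 12 mitochondrial and 18 nuclear members were higher and 0 nuclear members lower, with 2752 genes higher and 2158 lower over all, and no Boxer call. The lower nuclear count was also 0 with other-breed lymphomas only, in female dogs only and with sex as a covariate. Leaving out 1 library gave 15 to 26 nuclear members higher and 0 to 1 lower, 11 to 12 mitochondrial members higher, 1866 to 3291 genes higher and 1194 to 2605 lower, and 0 to 2 genes called between Boxer and other-breed lymphomas. That last count was 102 in DESeq2 and 2 with a pseudocount of 5. Without other-breed lymphomas 1 and 2, 12 mitochondrial and 21 nuclear members were higher.

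Without COX1 and ND4 the mean mitochondrial share was 6.02% in lymphomas and 1.55% in controls, and over reads with a gene symbol it was 11.3% in lymphomas and 3.71% in controls. Of members that did not pass, COX7A2L turned positive at log2 fold changes of 0.0829 (total without mitochondrial genes), 0.0312 (edgeR), 0.0446 (DESeq2), 0.162 (other-breed lymphomas only), 0.239 (female dogs only) and 0.239 (sex as a covariate), and lay at -0.0959 to 0.184 without 1 library. COX8A turned positive at 0.0521 with Boxer lymphomas only and 0.0863 without other-breed lymphomas 1 and 2. Over the named members, 822 values kept their side of the threshold, 89 lost it, 3 gained it and 11 changed sign. Leaving out 1 of the 3 controls took away more nuclear calls in the higher direction (15 to 16 left) than leaving out 1 lymphoma (20 to 26 left). All genes tested behaved alike: of 3092 higher in the main fit, the count was 1866 to 2078 without 1 control and 2718 to 3291 without 1 lymphoma.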

Other observations

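In Boxer lymphoma 1, NDUFV3 was at 12438 normalised reads. The genes read beside it were the nearest in the RefSeq order of UU_Cfam_GSD_1.0 with a symbol in these data, and showed no rise of that size. Genes in between without a matching symbol were not read, and the cause was not tested. WDR4 was at 525 in that library, against 297 to 432 in the other lymphomas and 116 to 241 in the controls. HSF2BP was at 230.2 in that library, against 117 to 228 in the other lymphomas and 104 to 161 in the controls. PDE9A and CRYAA were at 9.35 and 0 in that library, and were low in every library (at most 21.3 and 5.46). In Boxer lymphoma 2, where COX4I2 was at 104, the pericyte and fibroblast gene PDGFRB was at 215, against 0 to 769 in the other lymphomas and 0 to 1.85 in the controls.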
